A study of Homo sapiens with 8 samples.

Results

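The matrix metalloproteinases (MMPs) and their tissue inhibitors (TIMPs) described here are 8 genes: the proteases MMP1, MMP2, MMP3, MMP10 and MMP14 and the inhibitors TIMP1, TIMP2 and TIMP3. They were taken by gene name from an expression table of 29534 genes, as a set named with earlier results of these data known. BEAS-2B is a cell line from human bronchial epithelium that was transformed by a virus. For RNA sequencing the cells were transfected with Lipofectamine for 12 h, either with the plasmid pcDNA3.1-JunD, which carries the AP-1 subunit JunD, or with the empty vector. Both groups then received cigarette smoke extract (CSE) for 24 h, so no value below compares smoke with no smoke. There were 3 libraries of each kind, which the labels number without saying whether they came from separate cultures. The p-values therefore reflect nothing beyond the spread of these libraries, and that spread may be technical. For chromatin immunoprecipitation (ChIP), BEAS-2B cells were exposed to 8% CSE for 24 h and gave 1 input library and 1 library from JunD antibody precipitation. The labels mention no transfection for the ChIP cells, and the sources used here do not give the CSE concentration for the RNA cells.

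Expression was deposited as RPKM, that is, read numbers divided by the exon length of the gene and by the reads of the library, a scale on which levels of different genes can be compared. The libraries held between 15967955 and 29617655 assigned reads. JUND, the transfected gene, lay between 63.5 and 103 RPKM in the JunD libraries and between 10.5 and 13.2 RPKM in the empty-vector libraries, a log2 difference of 2.71 (SE 0.19, limma adjusted p = 1.02e-04). Reads from the plasmid and from the cells' own JUND cannot be told apart. JunD replicate 3 stood apart on the second principal component (11.8% of the variance), with a score of -22.2 against 11.7 and 10.8 for the other JunD libraries, and it had the highest JUND level. Among 8 bronchial epithelial markers, only KRT7, KRT8 and KRT18 reached 1 RPKM in the mean, and EPCAM, CDH1, KRT5, KRT19 and TP63 were at or near 0. The epithelial markers summed to 300 to 329 RPKM with JunD against 403 to 440 RPKM with the empty vector. Of 6 fibroblast markers found in the table, THY1 and PDGFRB reached 1 RPKM, and COL1A2, LUM and PDGFRA were at or near 0. The fibroblast markers summed to 44.1 to 50.6 RPKM with JunD against 76.4 to 83.7 RPKM with the empty vector. Leukocyte markers summed to at most 0.613 RPKM and endothelial markers to at most 0.157 RPKM in any library. The part of these marker differences in the values below was not tested, and in bulk RNA fewer cells of a type and less RNA per cell cannot be told apart.

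MMPs are zinc-dependent proteases that cleave collagens and other proteins of the extracellular matrix, and most are made as inactive proenzymes that other proteases open. TIMPs are small secreted proteins that occupy the active site of MMPs. TIMP2 also takes part in activation, because a complex of MMP14 and TIMP2 on the cell surface holds proMMP2 while a free MMP14 molecule cleaves it. In the airway, excess matrix protease over inhibitor is associated with smoke-related tissue damage, and genes such as MMP1 and MMP3 are textbook targets of AP-1, the family of dimers to which JunD belongs.

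AP-1 dimers bind 7-base motifs such as TGAGTCA. The wider pattern TGANTCA, with any base at N, was searched, and not every form of it is a typical AP-1 site. The sequences of the windows upstream of the starts of these genes are shown because the overexpressed factor is an AP-1 subunit. RefSeq (GRCh38.p14) promoter windows, from 250 bases before to 50 bases after a gene's start, were at hand for 4 of the 8 genes: MMP10, MMP14, TIMP1 and TIMP3. The last 150 bases before the start are printed 5′ to 3′ in the direction of transcription, with TGANTCA on either strand in capitals, followed by MMP7, another gene of the MMP cluster on chromosome 11, for comparison with MMP10.
MMP10, chr11:102780629-102780778, minus strand: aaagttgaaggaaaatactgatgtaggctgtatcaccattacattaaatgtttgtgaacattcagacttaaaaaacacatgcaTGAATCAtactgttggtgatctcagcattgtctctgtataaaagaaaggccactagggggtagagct
MMP14, chr14:22836435-22836584, plus strand: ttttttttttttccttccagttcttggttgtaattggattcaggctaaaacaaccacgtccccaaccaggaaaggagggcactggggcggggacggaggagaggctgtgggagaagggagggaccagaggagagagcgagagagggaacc
TIMP1, chrX:47582286-47582435, plus strand: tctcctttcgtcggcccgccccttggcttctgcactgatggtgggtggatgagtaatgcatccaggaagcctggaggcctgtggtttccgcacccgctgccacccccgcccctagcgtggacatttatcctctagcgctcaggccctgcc
TIMP3, chr22:32801555-32801704, plus strand: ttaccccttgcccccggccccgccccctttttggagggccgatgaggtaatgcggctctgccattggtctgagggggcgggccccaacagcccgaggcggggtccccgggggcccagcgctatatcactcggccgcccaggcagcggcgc
MMP7, chr11:102530748-102530897, minus strand: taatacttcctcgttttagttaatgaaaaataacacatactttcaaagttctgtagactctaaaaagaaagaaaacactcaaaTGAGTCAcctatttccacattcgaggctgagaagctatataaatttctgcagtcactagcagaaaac

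In MMP10 and in MMP7 the motif began 67 bases before the start, as TGAATCA in MMP10 and as TGAGTCA in MMP7. Windows were also at hand for MMP20, MMP27 and MMP8, which lie between MMP7 and MMP10. In MMP20 the motif TGAATCA began 112 bases before the start, and MMP27 and MMP8 held no TGANTCA. The position in MMP10 and MMP7 was thus not shared by the other windows of the cluster. No TGANTCA was found on either strand in the windows of MMP14, TIMP1 and TIMP3. The search took exact matches only, so near matches such as tgagtaa in the printed TIMP1 window were not counted. Absence of TGANTCA therefore does not show absence of an AP-1 site. Over all 35116 promoter windows of the table, 7.71% held TGANTCA, 4.95% held TGAGTCA and 1.85% held TGACGTCA, the related motif of the CRE type. TGAGTCA is contained in TGANTCA, whereas TGACGTCA is longer and is matched by neither. Base composition differed between the windows, with 36.3% G and C in the 300-base window of MMP10, 55.0% in MMP14, 65.0% in TIMP1 and 72.7% in TIMP3.

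With JunD, 5 of the 8 genes were higher (MMP1, MMP3, MMP14, TIMP1 and TIMP3), 2 were lower (MMP2 and TIMP2), and MMP10 had too few reads for a test. Genes with a mean of at least 1 RPKM over the 6 libraries were tested with limma on log2(RPKM + 0.5) and called at an adjusted p below 0.05. The 7 tested genes also had a mean above 1 RPKM in each group taken alone. Over all 13379 genes tested, 31.5% were called higher and 14.7% lower with JunD, 46.2% in all, and in 57.4% the 3 libraries of each group did not overlap, as they did not in any of the 7. A call was therefore common in these libraries, and the genes differed more in the size of the change than in being called. Log2 fold changes below are JunD minus empty vector of log2(RPKM + 0.5), and the added 0.5 makes the change of low genes appear smaller. The median of all tested genes was 0.10 on that scale, and quantile normalization turned the 4213 genes higher and 1963 lower into 2657 and 3244.

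**Figure D1:**
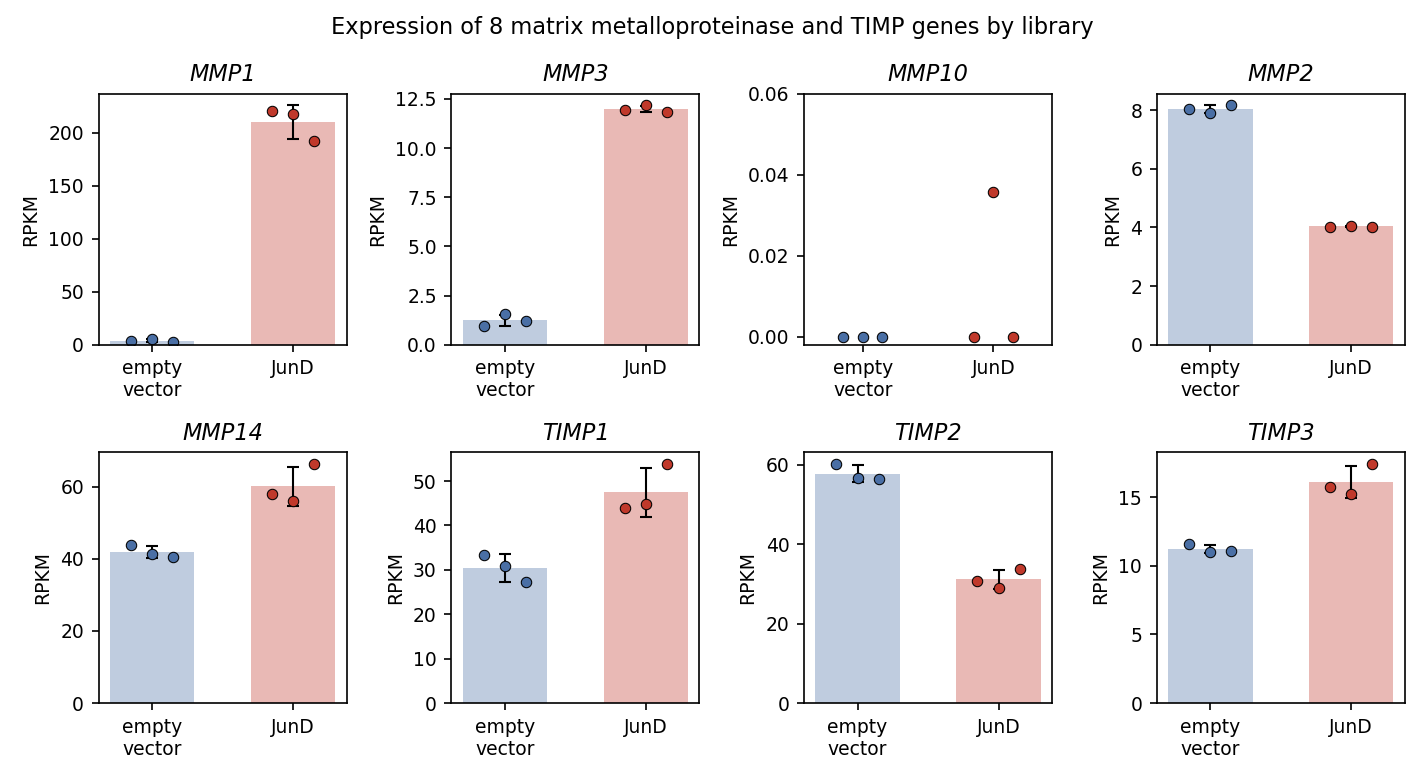
Expression of the 8 genes in RPKM, each panel on its own linear axis. Points are single libraries (3 with empty vector, 3 with JunD), bars are group means and error bars are SD; MMP10 is shown by points alone, since it had 1 read in 1 library. The groups do not overlap in the 7 panels other than MMP10.

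MMP1, the interstitial collagenase, which opens fibrillar collagen, showed the largest difference of the 8. The gene lies on chromosome 11 at 102789920 to 102798160 on the minus strand (GRCh38). Its level was 221, 218 and 192 RPKM in JunD replicates 1 to 3 and 3.49, 5.30 and 2.56 RPKM in empty-vector replicates 1 to 3. Every JunD library lay far above every empty-vector library. The means were 210 ± 15.8 (SD, n = 3) and 3.78 ± 1.39 RPKM, a ratio of 55.6, and the log2 fold change was 5.67 (SE 0.22, limma adjusted p = 7.60e-06). By log2 fold change, MMP1 was number 6 of the 13379 genes tested, counted from the highest. The values rest on 20747 reads in the JunD libraries and 521 in the empty-vector libraries. MMP1 took 0.0414% of all assigned reads with JunD against 0.000745% with the empty vector.

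The exons of MMP1 share 150 bp, 7.61% of their length, with WTAPP1, a pseudogene on the opposite strand that spans MMP10 and MMP1. The sources used here do not give the strand setting of the counting, and reads over 2 genes were counted for both, since 580 genes that lie wholly within exons of other genes on the same strand hold reads. WTAPP1 was at 94.5, 95.5 and 80.3 RPKM with JunD and at 1.66, 2.15 and 1.19 RPKM with the empty vector, and its log2 fold change was 5.41 (SE 0.16, limma adjusted p = 2.24e-06). Reads from the overlap of MMP1 and WTAPP1 cannot be told apart. If every WTAPP1 read were also an MMP1 read, MMP1 would keep 1988, 1765 and 1966 reads of its own in the JunD libraries and 24, 97 and 19 in the empty-vector libraries. The groups did not overlap in these smallest possible values either.

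MMP3, or stromelysin 1, degrades proteoglycans and other matrix proteins and activates other proMMPs, among them proMMP1. It lies on chromosome 11 at 102835801 to 102843803, minus strand, next to MMP1 in the same cluster. Its level was 11.9, 12.2 and 11.8 RPKM with JunD against 0.964, 1.55 and 1.20 RPKM with the empty vector. All JunD libraries were within a narrow range and above all empty-vector libraries. The means were 12.0 ± 0.169 and 1.24 ± 0.295 RPKM (SD, n = 3), a ratio of 9.67, with a log2 fold change of 2.86 (SE 0.12, limma adjusted p = 1.26e-05), number 60 from the highest. These levels rest on 1232 reads with JunD against 173 with the empty vector, and 32 bp of the exons, 1.56%, overlap WTAPP1. MMP3 stayed below MMP1 in each of the 6 libraries.

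MMP10, stromelysin 2, is the neighbour of MMP1 on the other side, at 102770503 to 102780628 on the minus strand of chromosome 11. It had 1 read, in JunD replicate 2 (0.0356 RPKM), and 0 reads in each of the other 5 libraries. A count of 0 allows up to 3 reads, which corresponds to between 0.0576 and 0.103 RPKM in those 5 libraries. MMP10 was thus not detectable at this depth in either group, and no fold change was computed, while MMP1 and MMP3 beside it differed by large amounts. The other genes of the cluster that the table lists were as low, with 1 read for MMP7 in all, 13 reads with JunD against 10 with the empty vector for MMP12 (macrophage elastase), and 7 and 1 reads for MMP13 (collagenase 3). Intervals from such counts cover counting error only.

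**Figure D2:**
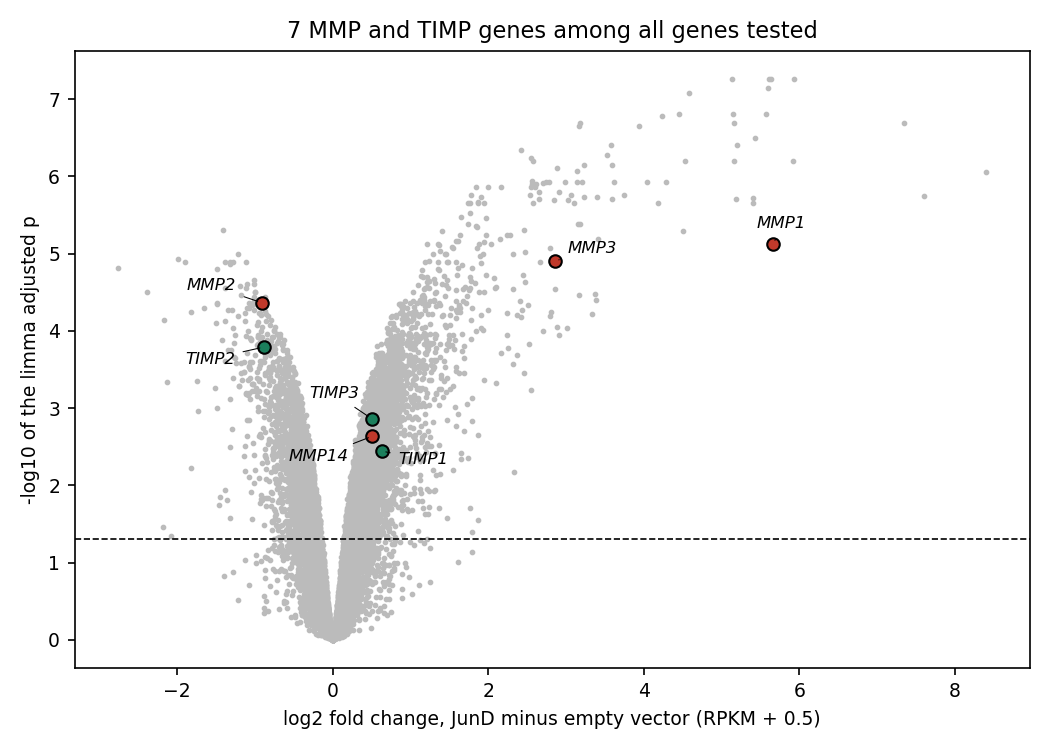
Log2 fold change (JunD minus empty vector, x axis) against the negative log10 of the limma adjusted p (y axis) for the 13379 genes tested, in grey. Red points are proteases, green points are inhibitors and the dashed line is an adjusted p of 0.05; MMP1 at 5.67 and MMP3 at 2.86 lie far to the right of MMP14, TIMP1 and TIMP3, while MMP2 and TIMP2 lie on the left side.

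MMP2, gelatinase A, cleaves denatured collagen and basement membrane collagen, and was the only protease of the set that was lower with JunD. It lies on chromosome 16 at 55389700 to 55506691, plus strand. Its level was 4.02, 4.05 and 4.03 RPKM with JunD against 8.03, 7.91 and 8.16 RPKM with the empty vector. The libraries of each group were close to each other and the groups did not overlap. The means were 4.03 ± 0.0156 and 8.03 ± 0.125 RPKM (SD, n = 3), a ratio of 0.502, with a log2 fold change of -0.91 (SE 0.05, limma adjusted p = 4.33e-05). MMP2 was number 168 from the lowest of the 13379 genes. Of its exon length, 3.53% (174 bp) is shared with RP11-212I21.3 on the same strand, for which the log2 fold change was -0.47.

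MMP14, the membrane-anchored MT1-MMP, cleaves collagen at the cell surface and activates proMMP2. It lies on chromosome 14 at 22836557 to 22849027, plus strand, and none of its exons overlap another gene. Its level was 57.8, 56.0 and 66.3 RPKM with JunD against 43.9, 41.3 and 40.4 RPKM with the empty vector. JunD replicate 3 was the highest library, and all 3 JunD libraries lay above the empty-vector libraries. The means were 60.0 ± 5.48 and 41.9 ± 1.77 RPKM (SD, n = 3), a ratio of 1.43, with a log2 fold change of 0.51 (SE 0.08, limma adjusted p = 0.0023). By size this was number 1967 from the highest, a much more common change than those of MMP1 and MMP3.

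TIMP1, a secreted inhibitor that binds most soluble MMPs but is weak against MMP14, rose. It lies on the X chromosome at 47582313 to 47586789, plus strand. Its level was 43.9, 44.7 and 53.9 RPKM with JunD against 33.3, 30.9 and 27.2 RPKM with the empty vector. JunD replicate 3 was again the highest, and the groups did not overlap. The means were 47.5 ± 5.50 and 30.5 ± 3.08 RPKM (SD, n = 3), a ratio of 1.56, with a log2 fold change of 0.63 (SE 0.11, limma adjusted p = 0.0036), number 1320 from the highest.

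TIMP2, the inhibitor that also serves as the adaptor for activation of proMMP2, fell. It lies on chromosome 17 at 78852977 to 78925387, minus strand. Its level was 30.8, 29.0 and 33.6 RPKM with JunD against 60.2, 56.6 and 56.5 RPKM with the empty vector. All JunD libraries lay below all empty-vector libraries by more than the spread within either group. The means were 31.1 ± 2.36 and 57.7 ± 2.13 RPKM (SD, n = 3), a ratio of 0.539, with a log2 fold change of -0.88 (SE 0.07, limma adjusted p = 1.62e-04), number 184 from the lowest. Of the exon length of TIMP2, 3.52% is shared with CEP295NL on the same strand and 6.52% with RP11-323N12.5 on the other, and both were also lower (log2 fold changes -0.85 and -0.89). Reads over these shared stretches cannot be told apart.

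TIMP3, which is held in the matrix and also inhibits several ADAM proteases, rose. It lies on chromosome 22 at 32801701 to 32863043, plus strand. Its level was 15.7, 15.2 and 17.4 RPKM with JunD against 11.6, 11.03 and 11.04 RPKM with the empty vector. The groups did not overlap, and JunD replicate 3 was the highest library. The means were 16.1 ± 1.16 and 11.2 ± 0.315 RPKM (SD, n = 3), a ratio of 1.44, with a log2 fold change of 0.50 (SE 0.07, limma adjusted p = 0.0014), number 2040 from the highest. All 7 calls held in each of the 15 other settings tried, including the fits that left out JunD replicate 3.

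The order of the levels per length differed between the groups. With the empty vector, TIMP2 was the highest of the 8 genes, followed by MMP14, TIMP1, TIMP3, MMP2, MMP1, MMP3 and MMP10. With JunD the order was MMP1, MMP14, TIMP1, TIMP2, TIMP3, MMP3, MMP2 and MMP10. In neither group did any pair of neighbours in the order overlap between libraries. MMP1 thus went from below MMP2 to the top, TIMP2 went from the top to below TIMP1, and MMP14 stood just above TIMP1 in both groups.

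The summed RPKM of the 5 proteases was 295, 290 and 274 in the JunD libraries and 56.3, 56.1 and 52.4 in the empty-vector libraries. The summed RPKM of the 3 inhibitors was 90.4, 88.9 and 105 with JunD against 105, 98.5 and 94.7 with the empty vector. The protease sums did not overlap between the groups, and the inhibitor sums did. MMP14 made up 76.3% ± 2.24 of the protease sum with the empty vector and 21.0% ± 2.72 with JunD, whereas MMP1 made up 6.84% ± 2.35 and 73.4% ± 2.87 (SD, n = 3). Within the inhibitor sum, TIMP2 held 58.1% ± 1.31 with the empty vector and 32.9% ± 1.01 with JunD. TIMP1 held 30.6% ± 1.63 and 50.1% ± 1.38 of that sum, and TIMP3 held 11.3% ± 0.327 and 17.0% ± 0.396. The inhibitor sums were thus made of different parts in the 2 groups. Over all 19 MMP genes found in the table, the 5 proteases accounted for 81.5% ± 1.19 of the summed RPKM with the empty vector and 97.3% ± 0.288 with JunD. These sums are of transcripts, not of active protein.

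**Figure D3:**
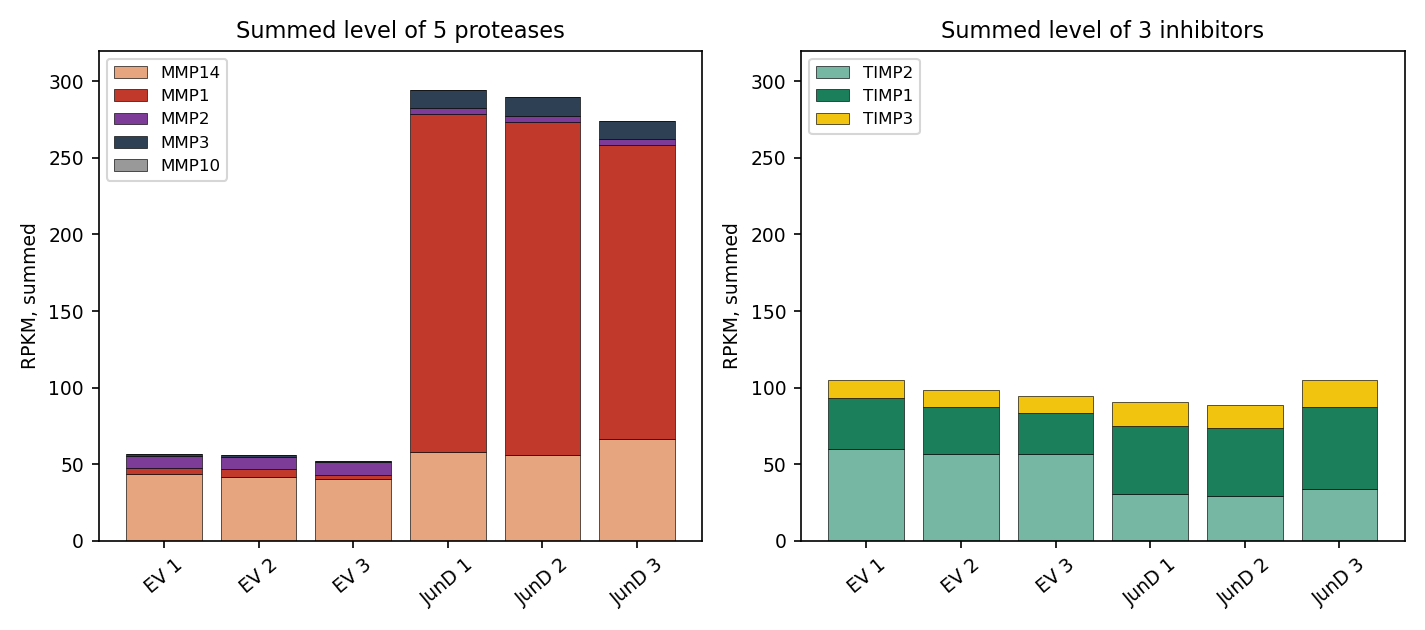
Stacked RPKM of the 5 proteases (left) and of the 3 inhibitors (right) in each library, on the same linear axis, with EV for empty vector. MMP1 fills most of the protease bars with JunD (274 to 295 RPKM in all) and MMP14 most of those with the empty vector (52.4 to 56.3 RPKM), and the inhibitor bars overlap in height between the groups.

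Apart from the added 0.5, ratios of genes within a library do not depend on the scaling of that library. For 13 ratios the log2 value of (RPKM + 0.5) was compared between the groups by a two-sided exact permutation test over the 6 libraries, which cannot give a p below 0.1. On this scale the groups did not overlap in 11 of the 13, which gives the exact permutation p of 0.1 and a Benjamini-Hochberg adjusted p of 0.118, so no ratio could pass the 0.05 threshold in a design of this size.

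The RPKM of the 5 proteases over that of the 3 inhibitors was 3.26, 3.26 and 2.61 in the JunD libraries and 0.536, 0.569 and 0.553 in the empty-vector libraries. Proteases exceeded inhibitors in every JunD library and were below them in every empty-vector library. The log2 ratio differed by 2.44 (SE 0.11), and by 1.55 when the log2 values of the genes were averaged in place of summing RPKM. That mean gives MMP1 no more weight than the others. It also gives full weight to MMP10, which was not detectable and adds almost no change. The ratio with MMP1 alone differed more: MMP1 to TIMP1, its soluble inhibitor, was 5.03, 4.86 and 3.57 with JunD against 0.105, 0.171 and 0.0940 with the empty vector, a log2 difference of 5.04 (SE 0.28). MMP3 to TIMP1 was 0.271, 0.272 and 0.220 with JunD against 0.0289, 0.0502 and 0.0442 with the empty vector, a log2 difference of 2.23 (SE 0.21). MMP3 thus remained below TIMP1 in all 6 libraries, although MMP1 passed it with JunD.

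Between MMP2 and TIMP2, which both fell, the ratio hardly moved. It was 0.131, 0.140 and 0.120 with JunD against 0.133, 0.140 and 0.144 with the empty vector, and the groups overlapped. The log2 difference was -0.03 (SE 0.07, exact permutation p = 0.7, adjusted p = 0.7). The ratio of MMP14 to TIMP1, which both rose, was 1.32, 1.25 and 1.23 with JunD against 1.32, 1.34 and 1.49 with the empty vector. These plain RPKM ratios were just apart, with 1.316 as the highest with JunD and 1.317 as the lowest with the empty vector. With 0.5 added to each RPKM, as in the test, the groups just overlapped, and the log2 difference was -0.12 (SE 0.06, exact permutation p = 0.2, adjusted p = 0.217). On the tested scale these are the 2 of the 13 ratios in which the groups overlapped, and with 3 libraries a side such p-values do not show that the ratios are equal.

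The pairing of MMP14 with TIMP2, the complex that activates proMMP2, changed in a different way. MMP14 over TIMP2 was 1.88, 1.93 and 1.97 with JunD against 0.729, 0.731 and 0.716 with the empty vector. The libraries of each group were tight, and the log2 difference was 1.39 (SE 0.02). MMP14 transcripts were below TIMP2 transcripts in every empty-vector library and above them in every JunD library. The inhibitors shifted against each other by similar amounts: TIMP1 over TIMP2 was 1.43, 1.54 and 1.60 with JunD against 0.553, 0.546 and 0.482 with the empty vector, and TIMP3 over TIMP2 lay between 0.511 and 0.524 with JunD against between 0.192 and 0.195 with the empty vector. The log2 differences were 1.51 (SE 0.08) and 1.38 (SE 0.01).

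Among the proteases, MMP1 over MMP3 was 18.5, 17.9 and 16.2 with JunD against 3.62, 3.42 and 2.13 with the empty vector. The log2 difference was 2.81 (SE 0.22), so the 2 neighbours of the cluster rose by unequal amounts. MMP2 over MMP14 lay between 0.0608 and 0.0723 with JunD against between 0.183 and 0.202 with the empty vector, a log2 difference of -1.42 (SE 0.09). MMP1 over MMP2 was at least 47.7 in the JunD libraries and at most 0.670 in the empty-vector libraries, a log2 difference of 6.58 (SE 0.29).

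**Figure D4:**
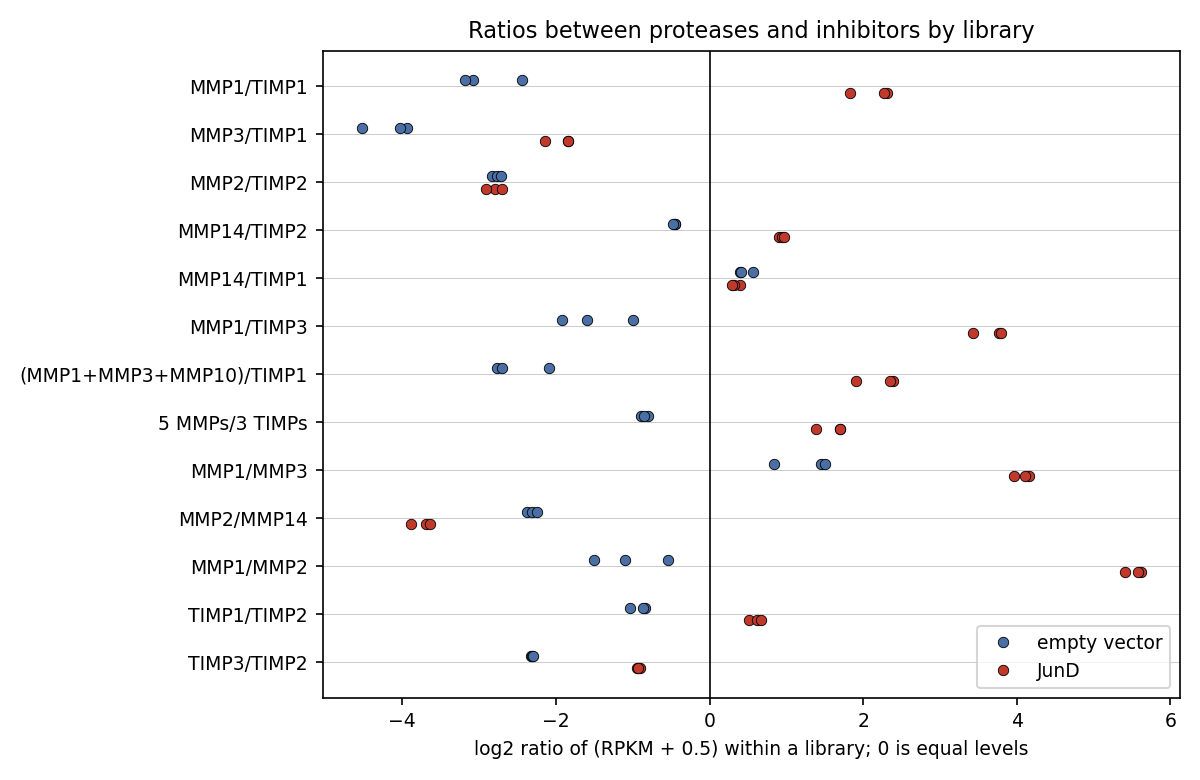
The 13 ratios, as log2 of (RPKM + 0.5) ratios within each library (x axis, 0 is equal levels), with 3 empty-vector libraries in blue and 3 JunD libraries in red. The groups are apart in 11 ratios and overlap in MMP2 over TIMP2 and in MMP14 over TIMP1.

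The rest of the MMP family gives the context. The list counts here and below stand beside 31.5% called higher and 14.7% lower over all 13379 genes tested. The lists were chosen with earlier results of these data known, and none was tested as a set. Of 23 MMP genes listed, 19 were in the table and 7 passed the filter; 3 were called higher (MMP1, MMP3 and MMP14), 3 lower and 1 neither, with a median log2 fold change of -0.17 against 0.10 for all genes. The other lower genes were MMP24, a membrane-type MMP, and MMP15, another membrane-type MMP. MMP24 went from 6.32 ± 0.758 to 2.35 ± 0.252 RPKM (SD, n = 3; log2 fold change -1.26, limma adjusted p = 2.25e-04), and 18.1% of its exon length is shared with the antisense gene MMP24-AS1. MMP15 had a log2 fold change of -0.28 (limma adjusted p = 0.0375), and its call was lost in 7 of the 15 other settings, among them the fits without JunD replicate 1 or 2 and without empty-vector replicate 1 or 2. MMP19 was not called (-0.17, limma adjusted p = 0.192), except lower with quantile scaling (-0.33). The 12 MMP genes below the filter included MMP9, gelatinase B, at 0.293 ± 0.170 RPKM with JunD against 0.0657 ± 0.0389 RPKM with the empty vector (SD, n = 3). These MMP9 values rest on 6, 9 and 20 reads in JunD replicates 1 to 3 and on 1, 7 and 3 reads in empty-vector replicates 1 to 3. The difference in MMP9 was not tested.

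Of 10 genes listed as MMP inhibitors, the TIMPs included, 6 were tested, 4 were higher and 1 was lower, with a median of 0.57. TFPI2, a Kunitz-type serine protease inhibitor of the matrix, rose by 1.84 on the log2 scale (limma adjusted p = 1.0e-04), from 0.468 ± 0.153 to 2.94 ± 0.128 RPKM (SD, n = 3), and passed the filter only through the JunD libraries, where it was high. SPOCK1, a testican proteoglycan, rose by 0.88 (limma adjusted p = 1.27e-04). RECK, a membrane-anchored MMP inhibitor, was not called, at 1.14, 1.14 and 1.40 RPKM with JunD against 1.502, 1.486 and 1.490 RPKM with the empty vector (log2 fold change -0.21, limma adjusted p = 0.101), and it was called lower without JunD replicate 3 (-0.28) and with median-of-ratios or quantile scaling (-0.30 and -0.37).

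Of 17 genes listed for activation and induction of MMPs, 9 were tested, 7 were called higher and 0 lower, with a median of 0.78. PLAU, urokinase, which makes the plasmin that opens proMMPs, rose from 7.92 ± 0.452 to 34.0 ± 2.76 RPKM (SD, n = 3; log2 fold change 2.03, limma adjusted p = 7.49e-06), although 31.1% of its exon length overlaps C10orf55 on the other strand. CTSL, the lysosomal protease cathepsin L, rose by 1.30 on the log2 scale (limma adjusted p = 2.15e-05). The list also holds SERPINB2, a plasminogen activator inhibitor, which acts against PLAU. SERPINB2 rose from 0.712 ± 0.148 to 15.7 ± 0.965 RPKM (SD, n = 3; log2 fold change 3.75, limma adjusted p = 1.74e-06). It too passed the filter only through the JunD libraries, and 19.9% of its exon length is shared with SERPINB10 on the same strand, where reads cannot be told apart.

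Among 16 ADAM and ADAMTS genes, relatives of the MMPs, 9 were tested, 4 were higher and 4 lower, with a median of -0.07. ADAMTS1, which cleaves proteoglycans, rose by 1.35 and ADAMTS6 by 0.96 on the log2 scale (limma adjusted p = 1.28e-05 and 1.51e-04). ADAM17, the sheddase of TNF, which TIMP3 inhibits, rose by 0.33 (limma adjusted p = 0.0041), but 24.1% of its exon length overlaps IAH1 and median-of-ratios scaling ended the call. ADAM12 had a log2 fold change of -0.79, ADAM9 of -0.33 and ADAM19 of -0.27 (limma adjusted p = 1.78e-04, 0.0065 and 0.0082). The calls of ADAMTS12 (0.19) and ADAM10 (-0.22) were lost in 11 and 9 of the 15 other settings, the fits without JunD replicate 2 or 3 or any single empty-vector library among them. The fit with a replicate block also lost ADAM19 and called 2 of the list lower, and median-of-ratios scaling called 2 higher.

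Of 14 genes for matrix proteins that MMPs cleave, 10 were tested, 4 were higher and 4 lower, with a median of 0.06. Of the epithelial basement membrane, the epithelial laminin chains LAMB3 (1.48) and LAMA3 (0.34) and the anchoring fibril collagen COL7A1 (0.73) were higher. The basement membrane collagens COL4A1 (-0.07) and COL4A2 (0.19) were not called (limma adjusted p = 0.618 and 0.0673). The call for LAMA3 was lost in 8 of the 15 other settings, among them those without JunD replicate 1 or 2 or empty-vector replicate 1 or 2. Fibronectin FN1 fell by 0.71, SPARC by 0.94, COL5A1 by 1.28 and tenascin TNC by 0.26 on the log2 scale, the last lost with a replicate block. For the 7 called genes named here limma's adjusted p lay between 1.30e-05 for LAMB3 and 0.0225 for LAMA3. Of 14 genes for transcription factors known at MMP promoters, JUND not among them, 12 were tested, 11 were higher and 0 lower, with a median of 0.44. FOSL1, a partner of JunD in AP-1, rose from 219 ± 5.57 to 422 ± 20.6 RPKM (SD, n = 3; log2 fold change 0.94, limma adjusted p = 6.45e-05), and the ETS family genes ETV4, ETS2 and ETV5 rose by 1.01, 0.86 and 0.76 (limma adjusted p at most 4.90e-04).

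For each tested gene, the 3 genes most like it by Pearson's r of log2(RPKM + 0.5) over the 6 libraries were listed, as a description, since 2 separate groups of 3 libraries make many values of r high. For MMP1 they were PLEKHN1, WTAPP1 and MBP, for MMP3 SLC2A3, HOXB9 and OXSR1, for MMP2 ITGA4, PEG10 and DBN1, and for MMP14 MDK, DENND4B and PPAN. For TIMP1 they were C1D, PSMB10 and OCIAD2, for TIMP2 ACACA, TANC2 and WDR1, and for TIMP3 GRN, CTSB and ANKFY1. No gene stood on the list of more than 1 of the 7. All r lay between 0.998 and 0.9997 over libraries that share these depths and groups. Likeness in r was not likeness in size: PLEKHN1, the closest to MMP1, went from 2.48 ± 0.130 to 4.72 ± 0.0445 RPKM (SD, n = 3). CTSB, the protease cathepsin B, went from 43.6 ± 0.725 to 64.1 ± 5.26 RPKM, a log2 fold change of 0.55 beside 0.50 for TIMP3.

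The peak list, from smoke-exposed cells, gives for 61360 peaks the position and the authors' own fold enrichment, q-value and pileup, from 1 JunD library against 1 input library, so it has no replicate check. The list is permissive, since 2.60% of its peaks had q below 0.05. The MMP cluster of chromosome 11 as the table lists it, from MMP7 to MMP13 at 102520508 to 102955734, is 435.227 kb long and held 10 peaks. That is 22.98 peaks per Mb, beside 19.9 on chromosome 11 and 20.5 over the main chromosomes. The 10 peaks had fold enrichments of 2.46 to 3.69 with a median of 3.08, beside 3.12 in the whole list, q-values of 0.179 to 0.579 and pileups of 3 to 6 reads. The density and the heights of the cluster's peaks were thus near those of the whole list, and none had q below 0.05.

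No listed peak lay over MMP1 or MMP3. The peak nearest to the start of MMP1 was 18.144 kb upstream, at 102816304 to 102816554 in an intron of WTAPP1, with a fold enrichment of 3.12 and q = 0.348. The peak nearest to the start of MMP3 was 25.722 kb upstream, at 102869525 to 102869775 in an intron of MMP12, with a fold enrichment of 3.08. MMP10 held a peak in an intron, at 102777271 to 102777545, 3.083 kb inside its start, with a fold enrichment of 3.08 and q = 0.348. Among the listed cluster genes, MMP10 had the peak nearest to its start, and MMP10 had no detectable expression in the transfected cells. Over 29424 gene starts, 22.2% had a listed peak within 5 kb. A link between these peaks and expression was not tested.

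MMP14 had the peak closest to a start among the 8 genes. It lay at 22836732 to 22837159 on chromosome 14, over an exon and 175 bp inside the start, with a fold enrichment of 3.90, q = 0.0721 and a pileup of 9. This was the highest fold enrichment and the lowest q among the 20 peaks over the 8 genes or within 50 kb of their starts, and it lay 147 bp inside the RefSeq start, where the MMP14 window printed above ends. At MMP2, a peak at 55390375 to 55390625 on chromosome 16 lay 675 bp inside the outermost start of the deposited gene model (fold enrichment 3.49, q = 0.179, pileup 5). The RefSeq start of MMP2, at 55478830, is 89130 bp further downstream, and the peak nearest to it was 6.836 kb away in an intron of the deposited model (fold enrichment 3.13, pileup 8). The deposited model of MMP2 is 116.991 kb long and held 5 peaks, while the main chromosomes held 20.5 peaks per Mb. Of these 5, the peaks 0.675, 71.704 and 81.956 kb inside the deposited start lay upstream of the RefSeq start.

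None of the TIMP genes had a peak within 5 kb of its start. For TIMP1 the nearest was 5.909 kb away in an intron of SYN1, the gene around it, with a fold enrichment of 3.69 and q = 0.179. For TIMP2 it was 7.799 kb upstream, with a fold enrichment of 3.32, and for TIMP3 6.593 kb upstream in an intron of SYN3, with 3.07. TIMP2 and TIMP3 each held 2 peaks within the gene. In all, 2 of the 8 genes had a peak at most 1 kb from the start, 3 within 5 kb and 8 within 50 kb. Over 29424 gene starts, 7.23% had a peak within 1 kb, 22.2% within 5 kb and 90.3% within 50 kb, so a peak within 50 kb says little about a gene. Of the 2 genes with a peak within 1 kb, MMP14 was higher and MMP2 lower with JunD, and the ChIP and RNA libraries came from separately treated cells.

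**Figure D5:**
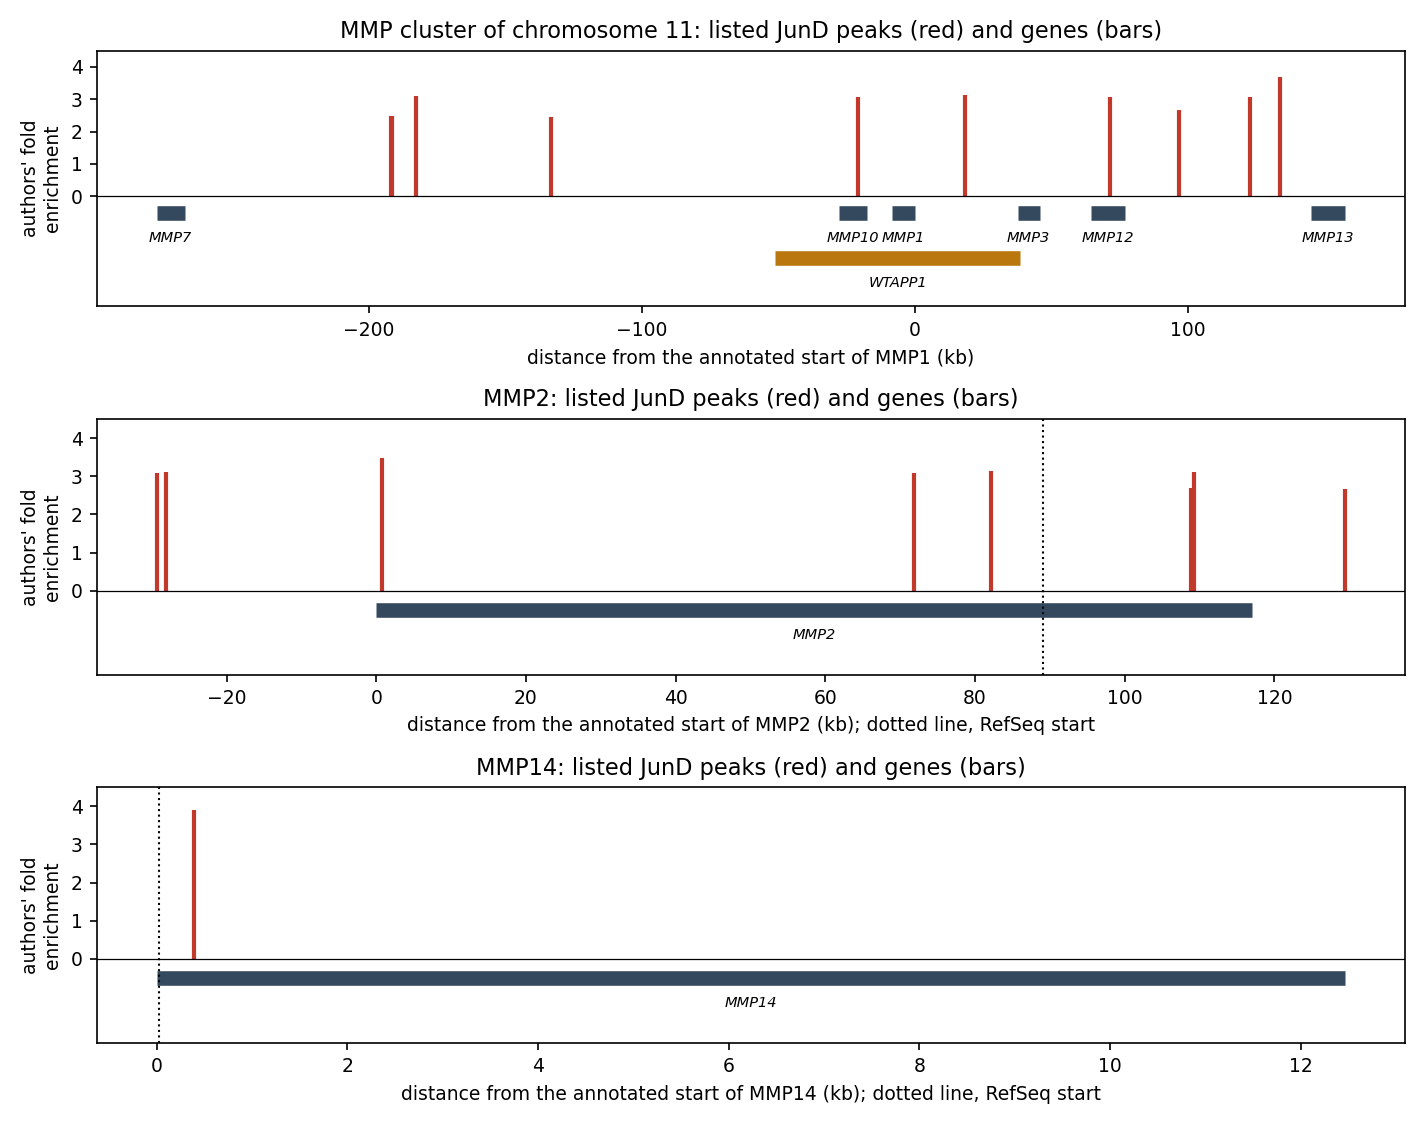
Listed JunD peaks (red lines at the peak centre, height the authors' fold enrichment) and genes (bars) around the chromosome 11 MMP cluster, MMP2 and MMP14, against distance in kb from the start in the deposited table. The dotted line marks the RefSeq start, which for MMP2 lies 89130 bp inside the deposited model; 10 peaks stand in the cluster, none over MMP1 or MMP3, and MMP14 has 1 peak near its start.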

How the data were processed

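RNA from 6 libraries and 1 ChIP library with its input were analysed from deposited tables. The authors deposited RPKM per gene with exon coordinates and lengths. The submitters' processing notes name build GRCh38 and, without saying what each did, bedtools 2.25.0, MACS2 2.1.1, STAR 2.5.3a, Trimmomatic 0.36 and featureCounts of Subread 1.5.1. The sources used here do not give the annotation or the strand setting. RPKM times length was a whole multiple of 1 read, within 0.01 read, for 100% of genes, which gave the reads per gene. Every gene of the table had a read in some library. Peaks were deposited with a fold enrichment (a ratio), a p-value, a q-value and a pileup (a coverage signal) for each, as the authors' peak caller gave them, per the file headers.

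Values of log2(RPKM + 0.5) were tested with limma 3.58.1 (trend, under R 4.3.3) for genes whose mean was 1 RPKM or more, JunD against empty vector, two-sided, Benjamini-Hochberg adjusted over all genes tested and called below 0.05. The fit was tested on simulated data for this comparison (13040 genes, 188 of them changed). The share found was 63.1% for log2 changes of 0.5, 98.4% for 1 and 100% for 2, and 5.78% of its 173 calls were false. The simulation took a single spread for all genes (dispersion 0.00136), from the empty-vector libraries alone. JunD replicate 3 differed more from the other JunD libraries (chi-square per degree of freedom 17.0 and 13.8) than the empty-vector libraries did from each other. In the data 46.2% of genes were called, so the simulated shares need not hold for them. Replicates differed beyond sampling noise in every pair (chi-square per degree of freedom 2.43 to 17.0), so all 6 libraries were counted. The 8 genes, the lists and the rule for named genes were chosen with earlier results of these data known. The rule takes JUND, the 8 genes, the other MMP genes of the chromosome 11 cluster, up to 4 called genes of each list with the smallest p in each direction, and the 3 genes most like each tested gene. WTAPP1 and other overlapping or neighbouring genes, MMP9, MMP19, RECK, COL4A1, COL4A2 and the marker genes were named after their values were seen. Gene starts are the 5′ ends of the outermost exons. Alternatives changed the pseudocount, the filter, the scaling, the block and the libraries used. Limma voom on the recovered reads and the RefSeq start of MMP2 were added after the data were seen. Some genes that the rule takes are left out of the text, though list counts include them.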

Additional observations from a re-analysis of the deposited data

How the results depend on the processing

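All 7 calls among the MMP and TIMP genes were kept in each of the 15 alternatives, with log2 fold changes of 5.45 to 5.91 for MMP1, 2.54 to 3.24 for MMP3, -1.07 to -0.84 for MMP2, 0.40 to 0.59 for MMP14, 0.52 to 0.71 for TIMP1, -0.997 to -0.82 for TIMP2 and 0.39 to 0.58 for TIMP3, and a largest limma adjusted p of 0.0288. Scaling moved the median log2 fold change of all genes from 0.10 to -0.0039 with median of ratios, -0.03 with quantile normalization and 0.18 with TPM. Against 4213 genes higher and 1963 lower, quantile normalization gave 2657 and 3244, and median of ratios gave 3014 lower. Leaving out 1 library gave 3116 to 4375 higher and 1333 to 2645 lower, and of the 8 genes 5 higher and 2 lower each time.

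Deviations of same-numbered libraries correlated at -0.17, -0.08 and -0.38, so no pairing by replicate number was seen. Deviations from a mean of 3 libraries depend on each other, so these values cannot show that the libraries were unpaired. With the replicate block 5 of the 8 genes were higher and 2 lower, and of all genes 2810 were higher and 1188 lower. With quantile normalization the log2 difference of MMP2 over TIMP2 was -0.13, and without 1 library it ranged from -0.08 to 0.03. As a mean of log2 values in place of a sum, MMP1, MMP3 and MMP10 over TIMP1 differed by 2.22 (4.74 as a sum). The 5 proteases over the 3 inhibitors differed by 1.55 (2.44 as a sum). Both means give full weight to MMP10, which was not detectable and adds almost no change. Without 1 library the sums gave 4.62 to 4.95 and 2.39 to 2.55, MMP1 over TIMP1 4.90 to 5.27 and MMP14 over TIMP2 1.38 to 1.41. The lists together held 33 genes called higher and 12 lower, and 28 to 32 and 10 to 12 without 1 library. Over all genes tested, 31.5% were called higher and 14.7% lower, and an excess in the lists was not tested. The number tested in each list is given above.

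With q below 0.05, or a fold enrichment of at least 5, 0 peaks remained over the cluster and 0 of the 8 genes had a peak within 1 kb. With every listed peak, 1 gene, MMP14, had a peak within 1 kb of its RefSeq start, and 8 of 8 did in a window of 50 kb around the start in the table. TGAGTCA and TGACGTCA were each found in 0 of the 4 windows, against 1 for TGANTCA. Count models planned for recovered reads were not run, since the table is RPKM, and 3 planned ratios with MMP10 alone were not computed, since it had 1 read. The ChIP library has no replicate, and low read numbers limit MMP7, MMP9, MMP10, MMP12 and MMP13.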

Other observations

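Genes that flank the chromosome 11 MMP cluster, chosen after their values were seen, showed unequal differences. BIRC3, an inhibitor of apoptosis and a component of NF-kB signalling that lies at 102317450 to 102339403, was at 3.62, 3.99 and 2.93 RPKM with JunD and at 0.495, 0.615 and 0.573 RPKM with the empty vector (log2 fold change 1.91, SE 0.12, limma adjusted p = 6.26e-05), and it passed the filter of 1 RPKM only through the JunD libraries. BIRC2, its paralog and neighbour, differed less, at 5.65 ± 0.290 and 4.04 ± 0.147 RPKM (SD, n = 3; log2 fold change 0.44, limma adjusted p = 0.0020). TMEM123, which lies between BIRC2 and MMP7, was at 27.5 ± 2.46 and 26.3 ± 1.72 RPKM (log2 fold change 0.06, limma adjusted p = 0.563), and its libraries overlapped. DCUN1D5, on the far side of MMP13, was at 23.6 ± 1.80 and 20.1 ± 0.683 RPKM (log2 fold change 0.23, limma adjusted p = 0.0354), a call lost in 9 of the 15 other settings, those without JunD replicate 2 or 3 or any single empty-vector library among them.

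WTAPP1 held 0.724, 0.742 and 0.707 reads for each MMP1 read with JunD against 0.803, 0.686 and 0.789 with the empty vector, so that the groups overlapped in this ratio while both genes differed between them by more than 5 on the log2 scale. The strand setting of the counting is not known here, and reads of the pseudogene and of the collagenase gene cannot be told apart where their exons overlap.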
